A study of Mus musculus with 4 samples.

Results

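The genes described are 10 transcription factors of the heart muscle lineage: Tbx5, Tbx20, Gata4, Gata6, Nkx2-5, Mef2a, Mef2c, Mef2d, Hand2 and Irx4. They were taken by gene symbol from a table of 55401 genes, and all 10 were found, each in 1 row. The libraries were made from poly(A) RNA of mouse hearts on day 28 after surgery. In the MI group (n = 2) a ligation operation had been done to cause a myocardial infarction, in which muscle dies because its artery is blocked. In the Sham group (n = 2) the chest had been opened without ligation. The labels give no strain, sex, age or genotype, and no treatment beyond the surgery. They call every sample heart, while the design text sets infarcted tissue against normal left ventricle, so the region taken for each library is not known. The series title names cyanidin, but the labels of the 4 libraries give no cyanidin treatment. Nothing states that the libraries of a group came from separate animals, so every p-value here measures the spread among these 4 libraries only, and that spread may be technical.

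In the embryo these factors act as a network that sets up heart muscle. GATA4 and GATA6 are zinc finger proteins, NKX2-5 is a homeodomain protein, TBX5 and TBX20 are T-box proteins, the MEF2 proteins share a MADS domain, HAND2 is a basic helix-loop-helix protein, and IRX4 is a homeodomain protein of the Iroquois family. Several bind one another and the same enhancers of contractile genes, and they stay expressed in adult heart muscle. TBX5 is known for its role in the atria and the conduction system, and Irx4 for its restriction to the ventricles. GATA4, GATA6, HAND2, TBX20 and MEF2C are also known from cells other than muscle cells, such as fibroblasts, endocardium, endothelium and epicardium.

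Library content differed in ways that may bear on these genes, which was not tested. Total estimated counts ran from 66624106 to 75979320 per library, at an apparent 4 counts per sequenced fragment. Cardiomyocyte markers (12 genes) summed to 14556 and 14442 FPKM in MI replicates 1 and 2, against 14082 and 15285 FPKM in Sham replicates 1 and 2, where FPKM is a fragment level scaled for gene length and library size. Atrial markers (12 genes) summed to 2651 and 1869 FPKM in MI, against 160 and 5172 FPKM in Sham. Without Nppa, which ventricles under load also make, the other 11 (a sum chosen after its values were seen) came to 19.2 and 13.8 FPKM in MI, against 8.39 and 1657 FPKM in Sham. Sham replicate 2 thus stood apart by its atrial transcripts. Each atrial marker was highest in that library except Nr2f1 and Nr2f2. These were at 0.35 and 0.69 FPKM there, against 0.37 to 0.67 and 1.35 to 1.45 FPKM in MI. Sham replicate 2 alone had appreciable adipocyte markers (5 genes, 42.7 FPKM against at most 0.09 in the other libraries). MI replicate 1 stood apart by lung markers (9 genes, 288.8 FPKM, against 0.17 in MI replicate 2 and 0.12 and 0.88 in Sham). The levels of the 10 factors are therefore given by library, and the differences of Tbx5, Hand2 and Irx4 also without either library.

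The promoter sequences of Hand2 and Irx4 are shown because these were 2 of the 3 factors whose level was lower in MI at an unadjusted p under 0.05, and that of Tbx20 because it was the 1 factor with a positive difference. They are the 250 bases before the RefSeq start of each gene (GRCm38.p6), written 5′ to 3′ on the strand of the gene. RefSeq promoters were matched by symbol for 7 of the 10 factors. Tbx5, Gata4 and Gata6 had no entry. Capitals mark matches to the letters of the factors' own binding motifs, searched on both strands: for GATA factors the letters AGATAA or AGATAG and the variants TGATAA or TGATAG, for T-box factors GGTGTG, for NKX2-5 the letters TNAAGTG, and the MEF2 motif by its name.
Hand2, chr8:57320733-57320982, plus strand: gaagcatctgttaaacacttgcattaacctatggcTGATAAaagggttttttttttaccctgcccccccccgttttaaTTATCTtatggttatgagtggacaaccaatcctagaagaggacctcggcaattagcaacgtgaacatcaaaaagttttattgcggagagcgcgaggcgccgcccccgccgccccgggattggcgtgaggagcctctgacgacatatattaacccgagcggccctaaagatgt
Irx4, chr13:73260247-73260496, plus strand: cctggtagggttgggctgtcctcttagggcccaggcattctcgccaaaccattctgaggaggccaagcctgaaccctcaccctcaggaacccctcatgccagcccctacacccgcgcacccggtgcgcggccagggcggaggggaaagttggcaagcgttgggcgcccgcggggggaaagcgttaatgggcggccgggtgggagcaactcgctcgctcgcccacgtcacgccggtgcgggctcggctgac
Tbx20, chr9:24774304-24774553, minus strand: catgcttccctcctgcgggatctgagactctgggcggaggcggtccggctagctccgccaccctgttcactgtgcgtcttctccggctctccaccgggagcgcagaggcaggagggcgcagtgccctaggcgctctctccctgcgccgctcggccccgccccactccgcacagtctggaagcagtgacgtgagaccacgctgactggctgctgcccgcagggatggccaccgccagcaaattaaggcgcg
The Hand2 window held 2 GATA matches, which began 215 and 172 bases before the start, and no other capitals. Of 32851 mouse promoters of the same length, 26.5% held a GATA match, 16.3% a T-box match, 10.1% an NKX match and 1.69% a MEF2 match. The Irx4 and Tbx20 windows held none of these letters, which says only that they are not in this window. GC content was 49.2% for Hand2 and 68.8% for both Irx4 and Tbx20, against a median of 52.4% over all promoters. The letters CANNTG of the E-box, to which HAND2 and other helix-loop-helix proteins bind, occurred 2 times in the Hand2 window (not capitalised) and in 66.2% of all promoters.

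All 10 factors were detected in all 4 libraries, at levels that differed widely between the genes. Averaged over the 4 libraries, Hand2 was the most abundant at 17.8 FPKM, followed by Mef2d at 16.0, Gata4 at 12.0 and Nkx2-5 at 9.02 FPKM. These 4 lay between the 85.2nd and the 92.3rd percentile of the 18475 genes tested. Mef2a, Irx4, Gata6, Tbx5 and Tbx20 lay between 3.38 and 5.31 FPKM, and Mef2c was far below the rest at 0.34 FPKM, the 24.9th percentile. In MI hearts the order was Mef2d, Hand2, Gata4, Nkx2-5, Mef2a, Irx4, Gata6, Tbx20, Tbx5 and Mef2c. Neighbours in it that differed by no more than the larger of their SDs were Mef2d and Hand2, and Gata6 and Tbx20. In Sham hearts it was Hand2, Mef2d, Gata4, Nkx2-5, Irx4, Tbx5, Mef2a, Gata6, Tbx20 and Mef2c, and there Irx4, Tbx5, Mef2a and Gata6 did not differ from their neighbours within that run beyond the spread. Tbx5 was 9th of the 10 in MI hearts and 6th in Sham hearts. These orders hold for FPKM and rest on the gene lengths used for it. CPM are counts scaled to library size with the trimmed mean method TMM and not divided by gene length. In CPM, Mef2d had the highest mean and Mef2a the next highest in both groups. These means were 97.7 and 79.7 CPM in MI, against 111.7 and 89.9 CPM in Sham.

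**Figure D1:**
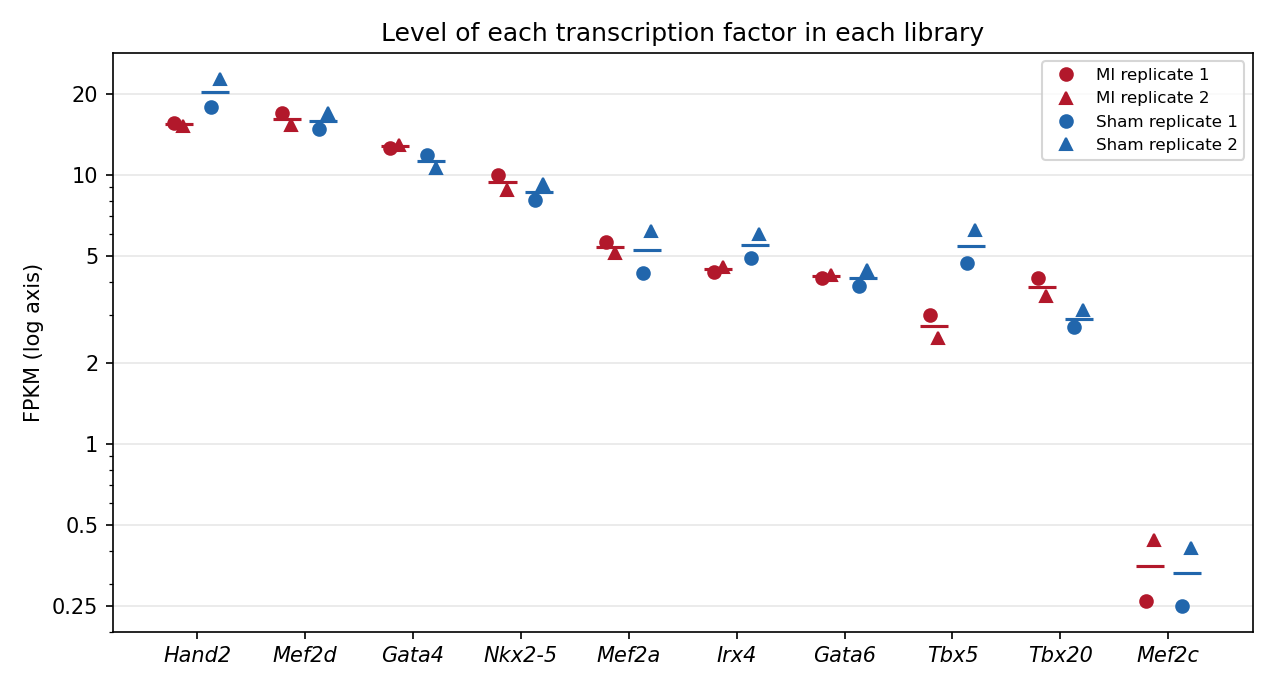
FPKM on a log axis of each factor in each library, genes ordered by mean level, with MI libraries in red and Sham libraries in blue, circles for replicate 1, triangles for replicate 2 and short lines for the group mean. Tbx5 (2.47 to 3.00 FPKM in MI, 4.68 to 6.23 in Sham), Hand2 and Irx4 have both MI points below both Sham points, and Mef2c lies below 0.5 FPKM throughout.

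Across the 10 factors, MI hearts differed from Sham hearts mainly in less Tbx5, with smaller differences in the same direction for Hand2 and Irx4, while the GATA factors, Nkx2-5 and the MEF2 genes had log2 differences of at most 0.20 in size. None of the 10 had an adjusted p below 0.05 by the quasi-likelihood test of edgeR, and 0 of the 18475 genes tested had one (0%). At an unadjusted p under 0.05, 3 of the 10 were lower and 0 higher, against 4.51% of all genes lower and 7.12% higher (11.6% either way). The DESeq2 test called 1 of the 10, Tbx5, against 3.22% of genes called either way and 1.09% called lower. In CPM, counts scaled to library size with the trimmed mean method TMM, the MI pair was below the Sham pair without overlap for 6 of the 10, against 21.9% of all genes, and above it for 1, against 24.9% (46.7% either way). The median log2 difference was -0.18 over the 10 factors and 0.00 over all genes tested, 9 of the 10 being negative. The sign of the small differences depends on the scale: on the FPKM scale (limma, pseudocount 0.1) and on a scale set by the cardiomyocyte markers the median of all genes stood at 0.20 and 0.28 instead of 0.00, and 3 of the 10 were negative on each, namely Tbx5, Hand2 and Irx4.

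**Figure D2:**
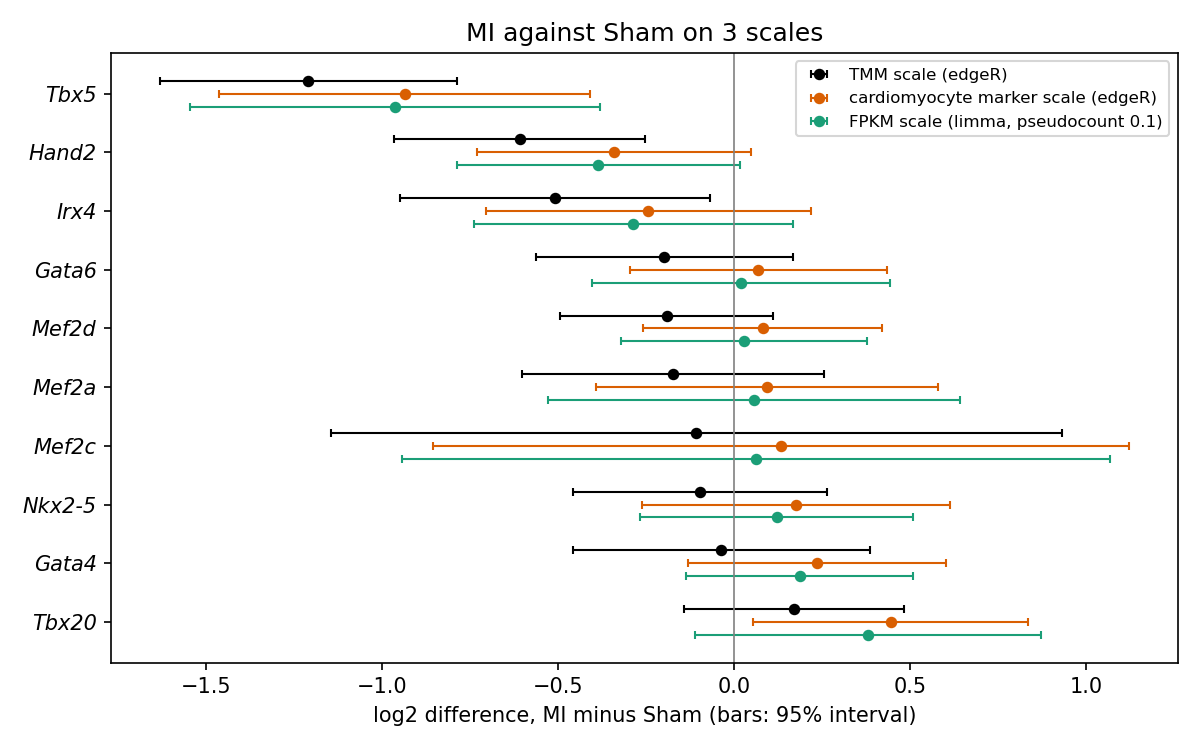
Log2 difference between MI and Sham for each factor with its 95% interval, on the TMM scale (edgeR, black), on a scale set by cardiomyocyte marker counts (edgeR, orange) and on the FPKM scale (limma, green). Tbx5 (-1.21, -0.94 and -0.96 in that order) lies below 0 with its whole interval on each of the 3.

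Tbx5 (ENSMUSG00000018263, chromosome 5, 119832668 to 119885219, plus strand), which drives atrial and conduction genes, was at 3.00 and 2.47 FPKM in MI replicates 1 and 2, against 4.68 and 6.23 FPKM in Sham replicates 1 and 2. Both MI libraries were below both Sham libraries, and the Sham library with atrial transcripts was the highest of the 4. In CPM the means were 12.9 ± 0.72 in MI and 29.9 ± 3.82 in Sham (SD, n = 2 each). The log2 difference was -1.21 ± 0.16 (SE), or 0.43 times the Sham level, with a 95% interval of -1.63 to -0.79. Its edgeR p was 0.00079 and its adjusted p 0.201, and its DESeq2 adjusted p was 2.47e-05 (2.47e-05 to 0.991 over the 14 alternatives). Taken at 4 counts per fragment, the counts stand for about 280 and 240 fragments in MI and 432 and 528 in Sham. A 95% Poisson interval on the smallest of these is -12.3% to 13.5%, which covers counting error only. Fewer cells that express a gene and less RNA per cell cannot be told apart in tissue RNA.

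The lower level of Tbx5 was also measured against the Sham library with few atrial transcripts. Against Sham replicate 1 alone, whose atrial light chain gene Myl7 was at 0.46 FPKM (1128 in Sham replicate 2; 1.20 and 0.41 in MI), MI replicates 1 and 2 differed by -1.02 and -1.13 in log2 CPM. Against Sham replicate 2 they differed by -1.28 and -1.39. The Sham libraries differed from each other by 0.26 and the MI libraries by 0.11. The median absolute difference over all genes was 0.34 between the Sham libraries and 0.25 between the MI libraries. Between an MI and a Sham library that median ran from 0.35 to 0.41. Without Sham replicate 2 the log2 difference was -1.07, and without MI replicate 1, the library with lung transcripts, it was -1.26. Over all 14 alternatives it stayed between -1.33 and -0.78, with an unadjusted p under 0.05 in each. The lincRNA gene Gm43050, chosen after its values were seen, lies on the opposite strand at a distance of 646 bases from Tbx5. It was at 0.97 and 0.80 FPKM in MI, against 1.33 and 1.16 FPKM in Sham.

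Tbx20 (ENSMUSG00000031965, chromosome 9, 24718138 to 24774284, minus strand), the other T-box gene and one that restrains Tbx2 in the working heart muscle, went the other way in value. It was at 4.12 and 3.54 FPKM in MI, against 2.71 and 3.13 FPKM in Sham, with both MI libraries above both Sham libraries. The log2 difference was 0.17 ± 0.12, with a 95% interval of -0.14 to 0.48 and an adjusted p of 0.626 in edgeR. It was positive under all 14 alternatives (0.14 to 0.44), and had an unadjusted p under 0.05 on the cardiomyocyte marker scale alone. A ratio between 2 genes of 1 library does not depend on the scale of that library. The ratio of Tbx5 to Tbx20 in FPKM was 0.73 and 0.70 in MI, against 1.73 and 1.99 in Sham. Which gene of the pair is the higher depends on the gene lengths used for FPKM. In CPM, which is not divided by length, Tbx5 was the lower of the pair in every library. It was at 13.4 and 12.4 CPM in MI, against 47.2 and 45.4 for Tbx20. In Sham it was at 27.1 and 32.6 CPM, against 40.3 and 42.0 for Tbx20. The ratio of Tbx5 to Nkx2-5 was 0.30 and 0.28 in MI, against 0.58 and 0.68 in Sham.

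Hand2, needed for the right ventricle in the mouse embryo, was at 15.6 and 15.2 FPKM in MI, against 17.9 and 22.7 FPKM in Sham. Both MI libraries were below both Sham libraries, and they were close to each other (-0.12 in log2 CPM, MI replicate 1 minus 2). The log2 difference was -0.61 ± 0.14 (95% interval -0.97 to -0.25), with an unadjusted p of 0.00736 and an adjusted p of 0.306 in edgeR, and an adjusted p of 0.0644 in DESeq2. Against Sham replicate 1 alone it was -0.58 and -0.45 for MI replicates 1 and 2. Without Sham replicate 2 the difference was -0.51 with an unadjusted p of 0.0189, and without MI replicate 1 it was -0.54 with an unadjusted p of 0.0715. Its ratio to Nkx2-5 in FPKM was 1.56 and 1.72 in MI, against 2.22 and 2.46 in Sham. Hand2 (ENSMUSG00000038193, chromosome 8, 57320983 to 57324633, plus strand) shares 3251 bases with the antisense gene Hand2os1, and no source says that counting was done by strand, so reads of the pair cannot be told apart. Hand2os1 was at 2.22 and 2.70 FPKM in MI, against 3.70 and 2.73 FPKM in Sham.

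Irx4 (ENSMUSG00000021604, chromosome 13, 73260479 to 73269608, plus strand), a ventricular factor that holds back atrial genes, was at 4.35 and 4.55 FPKM in MI, against 4.91 and 6.04 FPKM in Sham. Both MI libraries were below both Sham libraries, and Sham replicate 2, the one with atrial transcripts, was the highest of the 4. In log2 CPM, Sham replicate 1 was nearer to Sham replicate 2 (0.15 apart) than to MI replicates 1 and 2, which differed from it by -0.55 and -0.32. The log2 difference was -0.51 ± 0.17 (95% interval -0.95 to -0.07), with an unadjusted p of 0.0313 and an adjusted p of 0.383 in edgeR. The unadjusted p was 0.0808 without Sham replicate 2, with a difference of -0.43, and 0.182 without MI replicate 1, with -0.39. MI replicate 2 and Sham replicate 1 were the libraries lowest in lung markers and in atrial markers other than Nppa. Between them, Irx4 differed by -0.32, Hand2 by -0.45 and Tbx5 by -1.13 in log2 CPM, a comparison of single libraries with no test. The median absolute difference over all genes for this pair was 0.35, which is larger than the difference of Irx4. The ventricular markers (5 genes), among them Myl2 and Myl3, summed to 4152 and 4733 FPKM in MI, against 3912 and 4367 FPKM in Sham. At an unadjusted p under 0.05 in edgeR, 1 was higher and 0 lower, against 7.12% and 4.51% of all genes.

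**Figure D3:**
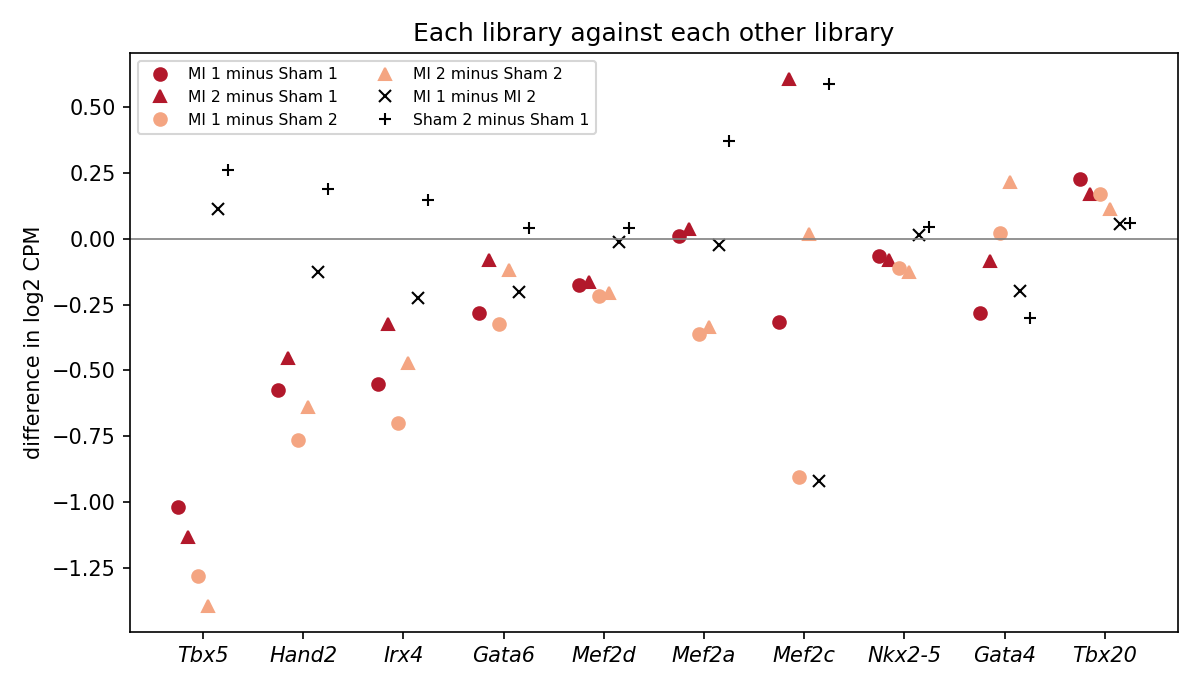
Differences in log2 CPM between single libraries for each factor: each MI library minus each Sham library (dark red against Sham replicate 1, light red against Sham replicate 2) and the differences within a group (black). For Tbx5 the 4 MI minus Sham points lie between -1.39 and -1.02, away from its within-group points at 0.11 and 0.26, and for Mef2c MI replicate 1 minus 2 is -0.92 and Sham replicate 2 minus 1 is 0.59.

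Of the GATA factors, Gata4, which drives cardiac gene programs and growth of muscle cells, was at 12.6 and 12.9 FPKM in MI, against 11.8 and 10.6 FPKM in Sham. Its log2 difference in CPM was -0.04 ± 0.16 (95% interval -0.46 to 0.39, adjusted p = 0.948 in edgeR), and the groups overlapped in CPM while in FPKM both MI libraries were higher. Gata6 was at 4.13 and 4.25 FPKM in MI, against 3.87 and 4.41 FPKM in Sham, overlapping ranges. Its log2 difference was -0.20 ± 0.14 (95% interval -0.56 to 0.17, adjusted p = 0.627 in edgeR), and in CPM both MI libraries were below both Sham libraries. Gata6 shares 504 bases with the antisense gene Gata6os, at 1.23 and 1.17 FPKM in MI, against 1.52 and 1.52 FPKM in Sham. The ratio of Gata4 to Gata6 in FPKM was 3.05 and 3.04 in MI, against 3.05 and 2.41 in Sham, so that 3 libraries were alike and Sham replicate 2 was lower.

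Nkx2-5, a marker of committed heart muscle cells that pairs with GATA4 and TBX5, was close to its Sham level in each library. It was at 9.98 and 8.81 FPKM in MI, against 8.05 and 9.22 FPKM in Sham. In CPM it had 16.4 and 16.2 in MI, against 17.2 and 17.7 in Sham, so the MI libraries were below by little. The log2 difference was -0.10 ± 0.14, with a 95% interval of -0.46 to 0.26 and an adjusted p of 0.826 in edgeR.

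The MEF2 genes, whose proteins switch on contractile and metabolic genes of muscle, were unlike in level, and none of the 3 had an unadjusted p under 0.05. Mef2d was at 17.02 and 15.33 FPKM in MI, against 14.8 and 16.9 FPKM in Sham (log2 difference -0.19 ± 0.12, 95% interval -0.49 to 0.11), overlapping in FPKM but in CPM below Sham in both MI libraries, with 97.3 and 98.2 CPM in MI, against 110.03 and 113.29 CPM in Sham. Mef2a was at 5.63 and 5.11 FPKM in MI, against 4.30 and 6.18 FPKM in Sham, the Sham libraries lying on either side of the MI libraries (-0.17 ± 0.17, 95% interval -0.60 to 0.25). Mef2c was at 0.26 and 0.44 FPKM in MI, against 0.25 and 0.41 FPKM in Sham. In both groups replicate 2 was the higher, and no label ties equal replicate numbers together. The Mef2c difference of -0.11 ± 0.40 had a 95% interval of -1.14 to 0.93, so changes within that interval, in either direction, are not excluded. Its counts stand for about 82 and 145 fragments in MI and 78 and 120 in Sham. The adjusted p in edgeR was 0.572 for Mef2d, 0.720 for Mef2a and 0.939 for Mef2c. Of the summed FPKM of the 3 genes, Mef2d made up 74.3% and 73.4% in MI, against 76.5% and 72.0% in Sham. Mef2c made up 1.14% and 2.11% in MI, against 1.29% and 1.74% in Sham. These shares rest on the gene lengths used for FPKM. In CPM, Mef2a was nearer to Mef2d, at 79.0 and 80.3 in MI, against 78.3 and 101.4 in Sham. The span of Mef2a overlaps the gene Lysmd4 on the opposite strand, at 1.07 to 1.19 FPKM in the 4 libraries.

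**Figure D4:**
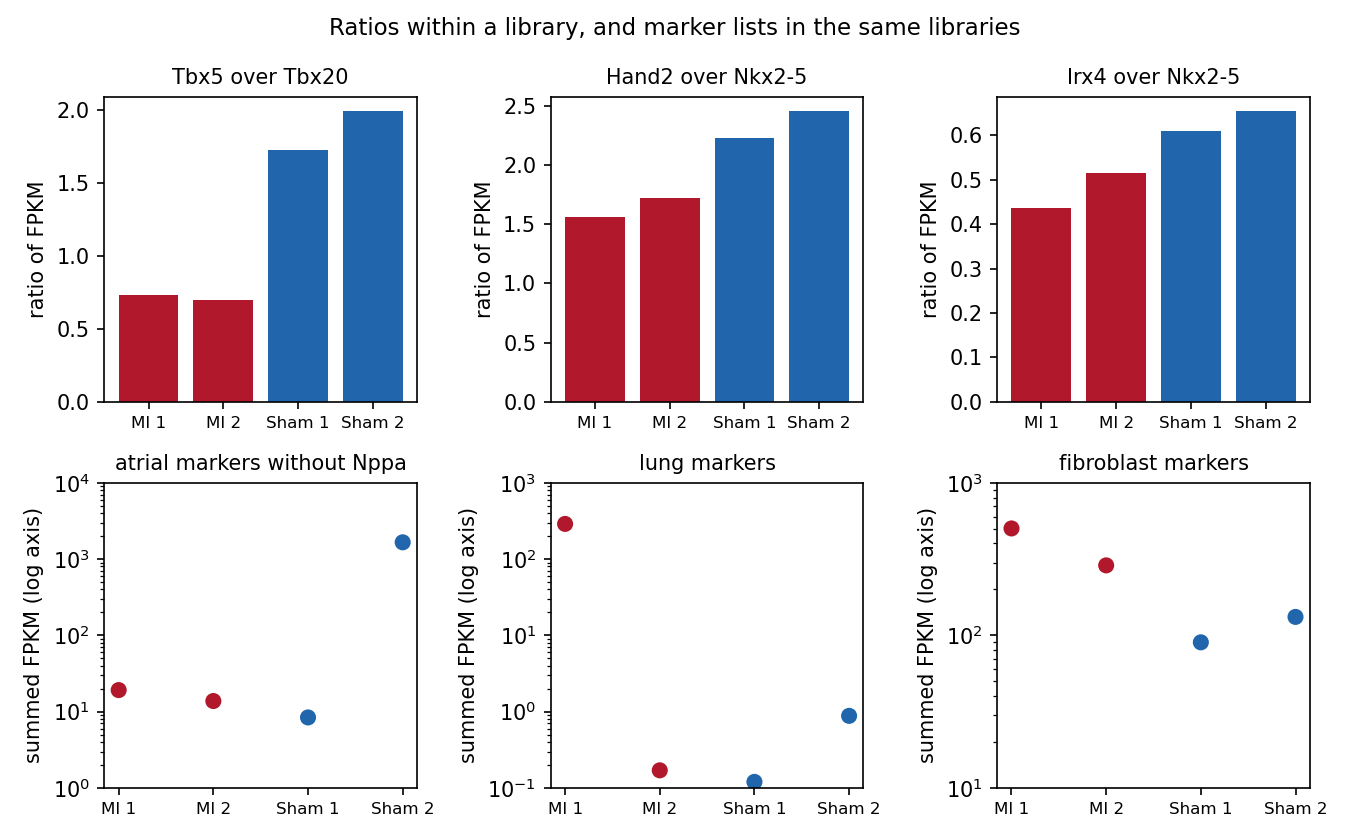
Top row, bars from 0: ratios of FPKM between 2 factors within each library, with MI in red left of Sham in blue. Bottom row, log axis: summed FPKM of atrial markers without Nppa, of lung markers and of fibroblast markers in the same libraries. The ratio of Tbx5 to Tbx20 is 0.73 and 0.70 in MI and 1.73 and 1.99 in Sham. Atrial markers without Nppa sum to 19.2 and 13.8 FPKM in MI and to 8.39 and 1657 FPKM in Sham.

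Partner proteins and other heart transcription factors (28 genes, 25 tested) went both ways, with a median log2 difference of 0.07. Of the 25, 3 were higher and 2 lower at an unadjusted p under 0.05, against 7.12% and 4.51% of all genes. The abundant members Hopx (0.06 ± 0.28), Smyd1 (0.13 ± 0.26), Srf (-0.03 ± 0.13) and Irx3 (-0.09 ± 0.27) had differences within their errors. Those at an unadjusted p were named after their values were seen. Zfpm2, which encodes FOG2, a cofactor that binds GATA4, was at 0.76 and 0.63 FPKM in MI, against 1.06 and 1.24 FPKM in Sham (log2 difference -0.94 ± 0.17; adjusted p = 0.261 in edgeR and 0.00873 in DESeq2). Meis2 had -0.61 ± 0.21. Nr2f2, which encodes COUP-TFII and is also on the list of atrial markers, was higher in MI. It was at 1.35 and 1.45 FPKM, against 0.58 and 0.69 FPKM in Sham (0.92 ± 0.19, adjusted p = 0.289 in edgeR and 0.0263 in DESeq2). Nfatc4, a calcineurin target that works with GATA4, had 1.27 ± 0.29 and Tbx18 0.73 ± 0.27. Tbx2, which Tbx20 restrains in the embryo, and Hand1, the paralog of Hand2, were also named after their values were seen. Tbx2 was at 3.49 and 2.03 FPKM in MI, against 1.44 and 1.45 FPKM in Sham, with an unadjusted p of 0.0520 in edgeR. Its highest value was in MI replicate 1, the library with lung transcripts. Hand1 was listed at 0 in all 4 libraries.

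Genes known as targets of these factors in heart (22 genes, all tested) had a median of -0.21, with 3 higher and 4 lower at an unadjusted p under 0.05, against 7.12% and 4.51% of all genes. The most abundant were Actc1, Mb, Myh6 and Myl2, cardiac actin, myoglobin, the main myosin heavy chain and the ventricular light chain, with differences of -0.08 ± 0.16, -0.54 ± 0.26, -0.37 ± 0.18 and -0.19 ± 0.19. Those at an unadjusted p, named after their values were seen, were Myh7, Nppb and Gja1 on the higher side and Kcnh2, Atp2a2, Tnni3 and Myl7 on the lower side. Of these, Myl7 was high in Sham replicate 2 alone, at the values given above, so that 1 library sets its place among the lower genes. Gja1, which encodes the gap junction protein of ventricular muscle, was at 10.97 and 10.98 FPKM in MI, against 5.22 and 7.49 FPKM in Sham (0.58 ± 0.17). Kcnh2, a potassium channel gene, had -0.81 ± 0.14. Of 5 genes for proteins that hold MEF2 factors back, 2 were higher at an unadjusted p, the histone deacetylase genes Hdac5 (0.42 ± 0.12) and Hdac7 (0.79 ± 0.24), against 7.12% of all genes, and 0 were lower.

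Among markers of other cell types, those of fibroblasts and endothelium had several genes higher in MI. Of all genes tested, 7.12% were higher and 4.51% lower at an unadjusted p under 0.05 in edgeR, the shares beside which the counts below stand. Fibroblast markers (9 genes) summed to 502 and 287 FPKM in MI, against 90.0 and 132 FPKM in Sham, with 6 of 9 higher and 0 lower at an unadjusted p and none at 0 in all libraries. Endothelial markers (8 genes) summed to 381 and 330 FPKM in MI, against 245 and 269 FPKM in Sham, with 4 higher and 0 lower. Smooth muscle and pericyte markers (7 genes) had 1 higher and 0 lower, epicardial and mesothelial markers (8 genes) 0 and 0, leukocyte markers (7 genes) 0 and 0, and endocardial markers (3 genes) 0 and 0. Cardiomyocyte markers (12 genes) had 0 higher and 1 lower, with a median log2 difference of -0.15. Conduction system markers (8 genes, 7 tested) summed to 2.98 and 3.37 FPKM in MI, against 3.30 and 6.66 FPKM in Sham, with 0 higher and 1 lower. Skeletal muscle markers (8 genes, with Myog at 0 in all libraries) summed to 9.74 and 1.09 FPKM in MI, against 0.67 and 1.63 FPKM in Sham. The part of these cell types in the levels of the 10 factors was not tested. On the scale set by the cardiomyocyte markers, Tbx5 differed by -0.94 and had an unadjusted p of 0.0061 in edgeR. There Hand2 differed by -0.34 with a p of 0.0737 and Irx4 by -0.24 with a p of 0.232. That scale is a sum of counts, to which Myh6 gave the most (1540423 of 3732401 in MI replicate 1). Myh6 and several others of these markers are also on the list of targets of the factors.

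Among genes of at least 5 FPKM, the profiles nearest to that of Tbx5 over the 4 libraries, by Euclidean distance of centred log2 CPM, were those of Slc10a6 (0.17), Junb (0.17) and Kcnj5 (0.27), out of 4481 genes compared. Junb, for example, was at 7.17 and 6.98 FPKM in MI, against 11.8 and 16.0 FPKM in Sham. The nearest to Irx4 were Gm6665, Bag2 and Magoh at 0.05 to 0.06, and the nearest to Hand2 were Ddx3x, Sh3bp5 and Dnttip2 at 0.02 to 0.05. A total of 12 genes lay within 0.1 of Irx4 and 10 within 0.1 of Hand2, against 0 for Tbx5. The distance is not scaled to the size of a gene's difference, which was larger for Tbx5 than for Irx4 and Hand2. These counts therefore do not rank how distinctive the profiles are. With 4 libraries these distances describe the libraries alone.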

How the data were processed

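Values come from 1 table deposited for the whole series. Per the file headers, the authors deposited an estimated count and an FPKM for each gene and library. Per the submitters' processing notes the software was HISAT2 2.0.4, StringTie 1.3.4d, UMI-tools and cutadapt 1.9, with roles and order unstated. For the genome build and the use of strand, the answer is not given in the sources used here. GENCODE M21 (GRCm38) holds 99.5% of the gene identifiers, 93.8% at identical coordinates (80% of the members). Coordinates are those of the file. Low counts pile up at multiples of 4, for a reason that is not stated. Fragment numbers and the Poisson interval given here assume 4 counts per fragment.

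Genes were kept with filterByExpr (minimum count 10, minimum total 15; 18475 genes, all 10 members), scaled by TMM and tested with edgeR 4.0.16 in R 4.3.3, by 2-sided quasi-likelihood tests on a model of group alone, p-values being adjusted over all genes after Benjamini-Hochberg with a threshold of 0.05. Standard errors and 95% intervals come from that fit. An exact permutation test of 2 against 2 libraries cannot go below a p of 0.333. Alternatives used DESeq2 1.42.0 and limma 3.58.1. The steps were tested on simulated data. No label pairs the libraries by replicate number. Deviations of same-numbered libraries correlated at -0.06. This cannot settle whether they were paired, because each group gives only a single difference between its libraries.

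Members and lists were chosen with earlier results of these data known, so no list was tested. Named genes were the members, overlapping genes, up to 4 most abundant genes of a list, and for Tbx5, Irx4 and Hand2 the 3 nearest profiles. Others are said to have been chosen afterwards.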

Additional observations from a re-analysis of the deposited data

How the results depend on the processing

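Of the 14 alternatives, all kept Tbx5, Hand2 and Irx4 below 0 and Tbx20 above 0. Relative to the median of all genes in each fit, Gata6, Mef2a and Mef2d were below 0 under all 14 as well. DESeq2 called 587 genes, Tbx5 among them (-1.21). With 1 library left out edgeR called 0 to 14 genes, 14 without Sham replicate 1 and 5 without Sham replicate 2, none of them a member. The lone library is then assumed to vary like the other group. Members at an unadjusted p under 0.05 numbered 1, Tbx5, in limma with either pseudocount (1 or 0.1) or with genes of at least 1 FPKM on average. Over all genes that count in limma was 2559 of 18475 with a pseudocount of 1 and 2534 of 18475 with 0.1. With genes of at least 1 FPKM it was 1816 of 10715. In edgeR with all 4 libraries, 3 members and 2150 of 18475 genes had such a p.

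Signs turned for members near 0 when the scale changed. Scaled to cardiomyocyte markers, Gata4 was 0.24, Gata6 0.069, Nkx2-5 0.18, Mef2a 0.095, Mef2c 0.13 and Mef2d 0.081. Limma with a pseudocount of 1 gave 0.17, 0.016, 0.11, 0.045, 0.021 and 0.026 in that order, and with 0.1 it gave 0.19, 0.020, 0.12, 0.056, 0.062 and 0.028. Kept to a mean FPKM of at least 1, a filter that drops Mef2c, limma gave 0.17, 0.016, 0.11, 0.045 and, for Mef2d, 0.026. Genes higher in MI made up 61.2% of those with an unadjusted p under 0.05 with TMM, 86.9% in limma with a pseudocount of 1 and 91.5% on the cardiomyocyte marker scale. With 1 library left out, Gata4 ran from -0.18 to 0.12, Mef2a from -0.35 to 0.024 and Mef2c from -0.63 to 0.29. The cause was not tested.

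With a replicate block in the edgeR fit, 0 genes were called and Tbx5 was at -1.20 (adjusted p = 0.460). There 3 members stayed at an unadjusted p under 0.05, against 1554 of the 18475 genes tested. Depth was lowest for Mef2c, at about 78 to 145 fragments per library.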
